A study of Mus musculus with 45 samples.

Results

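The unfolded protein response is the set of signals that a cell starts when misfolded proteins accumulate in the endoplasmic reticulum (ER), and 10 of its best known genes were examined here in tuft cells of the small intestine of mice on a high fat or a low fat diet. The 10 genes, chosen by symbol, were *Hspa5*, *Hsp90b1*, *Calr*, *Pdia4*, *Dnajb9*, *Xbp1*, *Herpud1*, *Atf4*, *Ddit3* and *Trib3*. The choice was made with earlier results of these data known. All 10 were found by symbol among the 47729 genes of the deposited tables, and all 10 passed the filter on low counts, more than 5 reads in at least 6 of 45 libraries, that left 14020 genes to test. *Trib3* passed it narrowly, with more than 5 reads in 20 libraries, and the other 9 genes passed it in 42 to 45.

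Each of the 45 libraries was made from tuft cells sorted from 1 male C57BL/6J mouse, and the mice were 5 weeks old on arrival and were housed at 30 degrees C with 4 in a cage. The reference fat diet (RFD) had 10% fat and the high fat diet (HFD) had 60% fat. The set named STF held 11 libraries on RFD and 11 on HFD, and the set named LTF held 11 on RFD and 12 on HFD. STF was taken as 9 weeks of feeding and LTF as 22 weeks, the feeding times of the study's methods, although the sample labels give 9 weeks for all 45. A difference between STF and LTF can therefore be one of feeding time or one between 2 sets of libraries, and these cannot be told apart.

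An ER that holds more unfolded protein than its chaperones can bind signals through 3 membrane sensors. IRE1 cuts the *Xbp1* mRNA so that it can be spliced into the form that encodes an active transcription factor, ATF6 is cut to release another factor, and both drive genes for chaperones and for the disposal of misfolded proteins. PERK slows translation and favours production of ATF4, which in turn drives amino acid supply genes, *Ddit3* (the gene of CHOP) and *Trib3*. Cells that secrete much protein, such as Paneth, goblet and plasma cells, keep chaperones and XBP1 high, whereas tuft cells are chemosensory cells of the same epithelium. The counts are per gene and do not separate spliced from unspliced *Xbp1*, and cleavage of ATF6 and phosphorylation of PERK are not seen in RNA.

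The upstream sequences of 4 members and of *Canx*, a folding gene of the wider pathway described further on, show the elements through which ATF6 and XBP1 are known to act. The ER stress response element (ERSE, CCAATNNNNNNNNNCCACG, searched on both strands) was found between 250 bases before and 50 bases after the start of *Hspa5*, *Hsp90b1*, *Calr* and *Canx*, and in 39 of 32851 such windows of all genes (0.119%). Its shorter form (ERSE-II, ATTGGNCCACG, both strands) was found at *Herpud1* and in 12 of all windows (0.0365%). The sequences are RefSeq's for GRCm38.p6, are written 5′ to 3′ on the gene's own strand, lie wholly upstream of RefSeq's start, and have the fixed bases of the element in capitals. *Hspa5* is shown from chr2:34772015-34772053 on the plus strand, *Hsp90b1* from chr10:86705523-86705666 on the minus strand, *Calr* from chr8:84847065-84847103 on the minus strand, *Herpud1* from chr8:94386367-94386397 on the plus strand and *Canx* from chr11:50325790-50325828 on the minus strand.
Hspa5: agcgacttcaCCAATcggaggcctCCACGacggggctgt
Hsp90b1: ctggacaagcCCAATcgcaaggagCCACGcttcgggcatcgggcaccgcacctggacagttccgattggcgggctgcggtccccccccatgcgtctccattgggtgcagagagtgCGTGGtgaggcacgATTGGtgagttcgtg
Calr: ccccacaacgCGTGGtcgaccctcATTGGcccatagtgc
Herpud1: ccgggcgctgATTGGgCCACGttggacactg
Canx: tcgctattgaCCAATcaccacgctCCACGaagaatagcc

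*Hsp90b1* had 2 elements, the second in the reverse orientation, and the element of *Calr* was also reversed. The windows of *Pdia4*, *Dnajb9*, *Xbp1*, *Atf4*, *Ddit3* and *Trib3* held no ERSE or ERSE-II of these letters. The element of ATF4 and its partners (CARE, TGATGNAA, both strands), found in 1304 windows (3.97%), was present in those of *Herpud1* and *Trib3*, and the XBP1 element (UPRE, TGACGTGG, both strands), found in 222 windows (0.676%), was in none of the 10. Members with and without an element are thus found in both the chaperone group and the others, and the match says only that the letters are there.

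By TPM, the deposited abundance that is corrected for gene length, the chaperones *Hspa5* (BiP, the main ER Hsp70 chaperone) and *Hsp90b1* (GRP94, the ER Hsp90) were the most abundant members, with medians over the 45 libraries of 251.1 and 242.4 TPM. They were followed by *Calr* (calreticulin, a calcium-binding lectin chaperone) with 108.1 TPM, *Xbp1* with 88.1 TPM and *Herpud1* (a membrane protein of ER-associated degradation) with 81.8 TPM. *Atf4* had a median of 32.7 TPM, *Pdia4* (a protein disulfide isomerase) 29.96 TPM, *Dnajb9* (ERdj4, a co-chaperone of BiP) 20.9 TPM and *Ddit3* 20.3 TPM. *Trib3*, a pseudokinase induced by ATF4 and CHOP, had 1.00 TPM. Of the 9 neighbouring pairs in this order, 3 differed by more than the spread of their difference between libraries. They were *Hsp90b1* over *Calr* (higher in 44 of 45 libraries), *Herpud1* over *Atf4* (43 of 45) and *Ddit3* over *Trib3* (45 of 45). *Hspa5* exceeded *Hsp90b1* in 25 of 45 libraries, with a mean log2 difference of 0.10 ± 0.48 (SD), so these 2 were not ordered.

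Reads on genes per library ranged from 189340 to 4193097 on RFD and from 409023 to 3600000 on HFD in STF, and from 829184 to 3476758 and from 661598 to 4690213 in LTF. Tuft markers were present in every group, but the sort was not pure. The summed level of 20 tuft markers was 4842 to 33370 CPM (normalized counts scaled to library size) in STF RFD and 452.0 to 32590 CPM in STF HFD, with medians of 21160 and 8547 CPM, and medians were 25570 and 19180 CPM in LTF. Of these 20 markers, 4 fell on HFD over both sets and none rose, with a median log2 fold change of -0.65. Among all genes tested 5.68% fell and 6.03% rose over both sets, the shares to set beside every marker count here. Paneth cell markers (9 genes, including *Lyz1* and the defensins) summed to between 27.9 and 683800 CPM, and exceeded 100000 CPM in 2 STF RFD, 3 STF HFD and 1 LTF HFD libraries. None of the 9 passed the test on HFD, and their median log2 fold change was 1.81 over both sets. Of the other marker lists, 1 of 12 enterocyte genes rose and 2 fell, 1 of 8 goblet and 1 of 8 stem or cycling genes rose and 2 of 8 enteroendocrine genes fell, and none of the tested plasma and B cell (5 genes), T cell (5) or myeloid (6) genes was called. Because a bulk library sums its cells, fewer cells of a type and less RNA per cell cannot be told apart in any value given here.

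The first question was whether the members differ between HFD and RFD within each set. In STF, 0 of the 10 members had an adjusted p under 0.1, the threshold used here, where 3.32% of all genes did, and 3 members had an unadjusted p under 0.05. In LTF it was again 0 of 10, with 2 at an unadjusted p under 0.05, where 0.792% of all genes were called. Over both sets, with the set as a term in the fit, 3 of 10 members were called where 11.7% of all genes were. Adjusted p values for the diets and sets are from the quasi-likelihood test of edgeR, with the Benjamini-Hochberg method applied to 14020 genes, unless another tool is named. *Calr* and *Pdia4* rose, where 6.03% of all genes rose, and *Ddit3* fell, where 5.68% of all genes fell. In all 3 diet comparisons 8 of 10 members had a higher fitted level on HFD, the exceptions being *Ddit3* and *Trib3*. The median log2 fold change of the members over both sets was 0.18, against -0.06 for all genes tested.

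**Figure D1:**
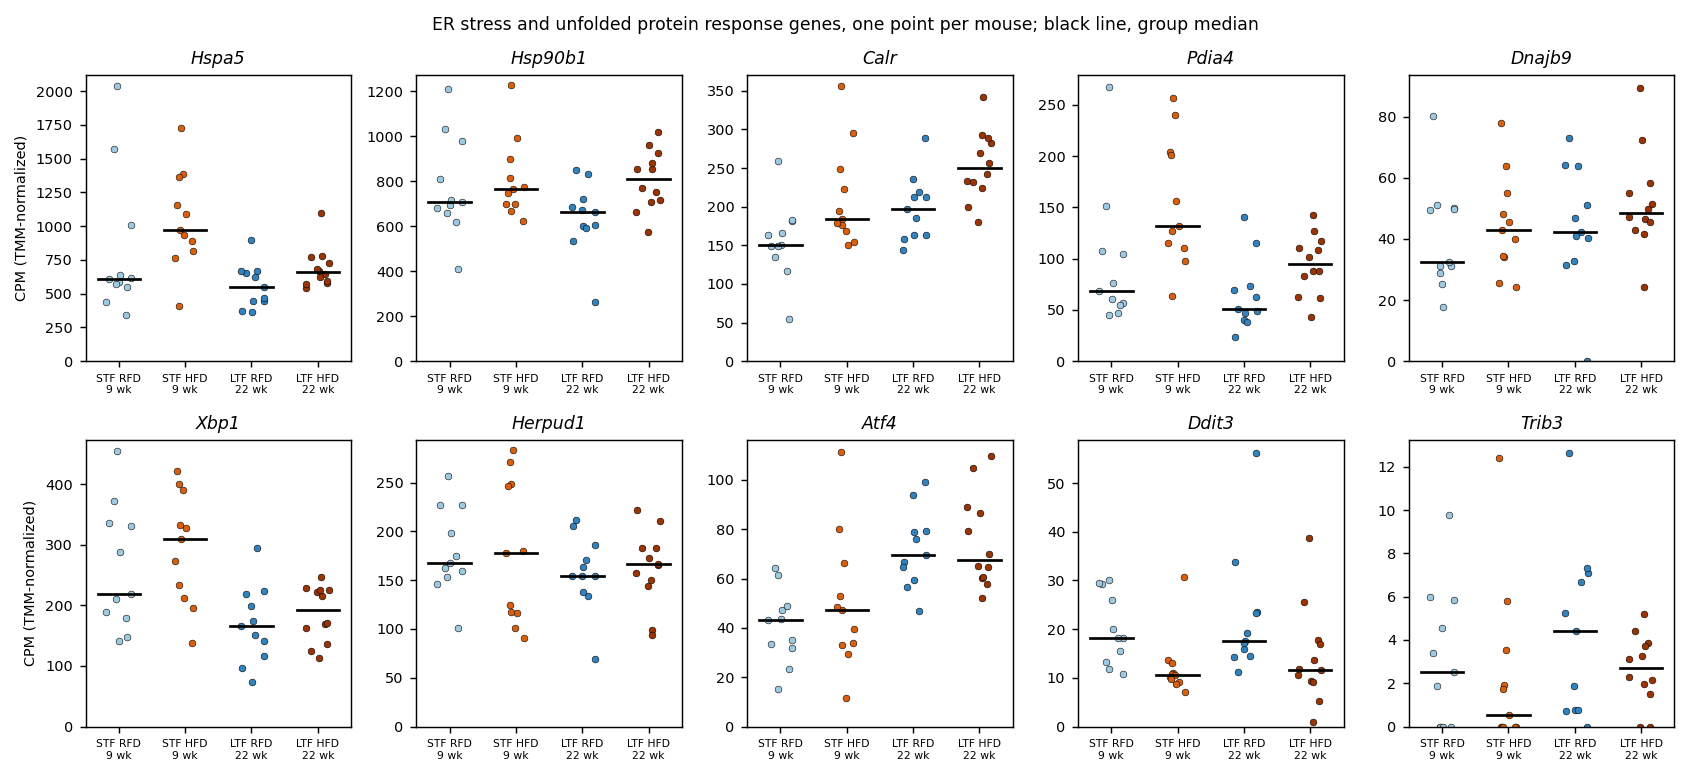
Normalized level of each of the 10 genes (y axis, CPM on a linear scale from 0) by set and diet (x axis), with 1 point per mouse and a black line at the group median. The HFD medians of *Calr* and *Pdia4* lie above, and those of *Ddit3* below, the RFD medians of the same set, and the groups overlap for every gene.

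Among the chaperones, *Pdia4* (chr6:47796141-47813430, minus strand, as are all gene positions here in GRCm38) had the largest difference. In STF it ranged from 45.01 to 267.3 CPM on RFD (median 68.4) and from 63.8 to 256.4 CPM on HFD (median 131.4), and in LTF from 23.5 to 140.6 CPM (median 50.9) and from 43 to 142.3 CPM (median 94.6). In both sets the diets overlapped, but 10 of 11 and 11 of 12 mice on HFD were above the RFD median of their set. The highest RFD value in STF belonged to mouse 20, a library with 128000 CPM of Paneth markers. Its log2 fold change reached 0.73 (SE 0.30, adjusted p = 0.185) in STF, 0.54 (SE 0.25, adjusted p = 0.455) in LTF and 0.62 (SE 0.19, adjusted p = 0.0401) over both, a 1.54-fold rise. It was positive in all 3 series of mouse numbers described below, at 0.47, 0.76 and 0.785.

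*Calr* (chr8:84841850-84846934, minus strand) ranged from 54.5 to 258.9 CPM on RFD (median 150.5) and from 150.1 to 355.9 CPM on HFD (median 184.1) in STF. Its range in LTF was 144.4 to 288.4 CPM on RFD (median 197.2) and 179.9 to 341.5 CPM on HFD (median 249.5). Again 21 of 23 mice on HFD were above the RFD median of their set, and 2 in STF and 3 in LTF were above every RFD mouse. On the log2 scale HFD exceeded RFD by 0.46 (SE 0.21, adjusted p = 0.238) in STF and by 0.345 (SE 0.15, adjusted p = 0.419) in LTF. Over both sets it was 0.39 (SE 0.12, adjusted p = 0.0338), a 1.31-fold rise, but with log2(TPM + 1) and limma it was 0.29 with an adjusted p of 0.475. GENCODE also lists a *Calr* pseudogene with which its reads may be shared.

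*Hspa5* (chr2:34771970-34777547, plus strand), the usual readout of ER stress, was not called in any diet comparison. It ranged from 344.2 to 2039 CPM on RFD (median 612.8) and from 406.6 to 1727 CPM on HFD (median 974.0) in STF, and from 361.8 to 894.6 CPM (median 546.6) and from 543.4 to 1097 CPM (median 658.7) in LTF. The spread on STF RFD came mainly from mice 20 and 10, at 2039 and 1569 CPM, both with over 100000 CPM of Paneth markers. As for *Calr* and *Pdia4*, 21 of 23 mice on HFD were above the RFD median of their set. The log2 fold change over both sets was 0.33 (SE 0.16, 95% interval 0.01 to 0.65, adjusted p = 0.191). In 3 of the 45 fits without 1 library it was past the threshold. These left out mouse 20 of STF RFD (0.44, adjusted p = 0.0418), mouse 10 of STF RFD (0.45, adjusted p = 0.0933) or mouse 1 of LTF RFD (0.41, adjusted p = 0.0812). Over all 45 such fits the value ran from 0.28 to 0.45.

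*Hsp90b1* (chr10:86690209-86705509, minus strand) ranged from 412.3 to 1210 CPM on RFD and from 625.9 to 1227 CPM on HFD in STF, with medians of 706.5 and 766.0 CPM. In LTF it ranged from 263.9 to 851.1 CPM on RFD and from 575.8 to 1021 CPM on HFD, with medians of 663.3 and 811.7 CPM, and 6 of 12 HFD mice exceeded every RFD mouse. Its log2 fold change over both sets was 0.20 (SE 0.12, 95% interval -0.03 to 0.44, adjusted p = 0.280). *Dnajb9* (chr12:44205559-44210326, minus strand) had group medians between 32.4 and 48.5 CPM, and its log2 fold change over both sets was 0.18 (SE 0.21, adjusted p = 0.651). Mouse 3 of LTF RFD had 0 reads of *Dnajb9* and also the lowest *Hsp90b1* of its group.

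*Xbp1* and *Herpud1*, which stand for the IRE1 branch and for disposal of misfolded proteins, differed little between the diets. *Xbp1* (chr11:5520659-5525893, plus strand) ranged from 141.4 to 454.4 CPM on RFD (median 219.5) and from 137.3 to 422.7 CPM on HFD (median 309.0) in STF, and from 73.0 to 295.4 CPM (median 166.7) and from 112.7 to 246.5 CPM (median 192.9) in LTF. The interval of its log2 fold change over both sets was -0.14 to 0.45 around 0.155 (SE 0.15, adjusted p = 0.557). *Herpud1* (chr8:94386438-94395377, plus strand) had medians of 167.4 and 177.5 CPM in STF and of 154.2 and 166.2 CPM in LTF, on RFD and HFD. Its log2 fold change over both sets was 0.01 (SE 0.13, adjusted p = 0.972), with a 95% interval of -0.26 to 0.28.

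Of the ATF4 and CHOP members 1 was called, and it was lower on HFD. *Ddit3* (chr10:127290774-127296288, plus strand) encodes CHOP, a transcription factor of late ER stress, and ranged from 10.8 to 30 CPM on RFD (median 18.1) and from 7.08 to 30.8 CPM on HFD (median 10.6) in STF, and from 11.2 to 56.1 CPM (median 17.6) and from 0.974 to 38.7 CPM (median 11.7) in LTF. In STF 7 of 11 HFD mice were below every RFD mouse, and mouse 63 was above every one. In LTF 5 of 12 were below every RFD mouse. Reads behind these values were few, with group medians of 22 to 32 reads per library, and mouse 6 of LTF HFD had 1 read. Fitted log2 differences were -0.70 (SE 0.31, adjusted p = 0.230) in STF, -0.68 (SE 0.36, adjusted p = 0.520) in LTF and -0.69 (SE 0.23, adjusted p = 0.0587) over both, a level on HFD 0.620 times that on RFD. It was negative in each series of mouse numbers, at -1.27, -0.49 and -0.55.

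*Atf4* (chr15:80255184-80257541, plus strand) ranged from 15.3 to 64.4 CPM on RFD (median 43.4) and from 11.6 to 111.3 CPM on HFD (median 47.2) in STF. In LTF it ranged from 46.8 to 99.1 CPM (median 69.4) and from 52.1 to 109.8 CPM (median 67.6), and 12 of 23 mice on HFD were above the RFD median of their set. The log2 fold change over both sets was 0.18 (SE 0.16, 95% interval -0.15 to 0.50, adjusted p = 0.528). ATF4 is regulated largely at translation, which these counts do not show. *Trib3* (chr2:152337422-152344032, minus strand) was near its floor, with at most 27 reads in any library and 0 reads in 12 of 45, and its log2 fold change of -0.61 over both sets had an SE of 0.575 (adjusted p = 0.557).

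**Figure D2:**
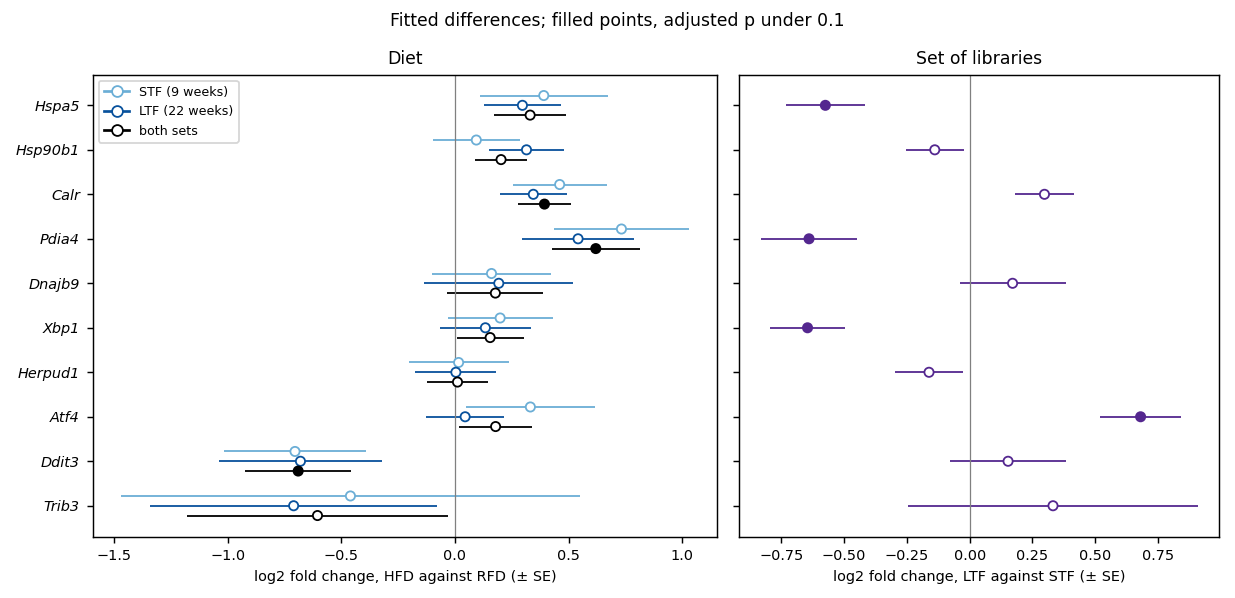
Fitted log2 fold change with its SE for each of the 10 genes, on the left for HFD against RFD in STF, in LTF and over both sets, and on the right for LTF against STF, with points filled where the adjusted p was under 0.1. Over both sets *Calr* (0.39) and *Pdia4* (0.62) are filled on the positive side and *Ddit3* (-0.69) on the negative side, and no point of a single set is filled on the left.

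Some calls over both sets were lost when marker levels entered the fit. With the difference between tuft and other epithelial markers as a covariate, *Calr* remained called, while *Pdia4* had a log2 fold change of 0.41 (adjusted p = 0.173) and *Ddit3* one of -0.53 (adjusted p = 0.278). With the mean Paneth marker level as a covariate, *Pdia4* was at 0.53 (adjusted p = 0.101) and *Ddit3* at -0.55 (adjusted p = 0.195). Without the 6 libraries over 100000 CPM of Paneth markers, 4 members were called, all chaperones, where 7.29% of all genes were. *Hspa5* then had a log2 fold change of 0.56 (adjusted p = 0.0346) and *Hsp90b1* one of 0.37 (adjusted p = 0.0973), beside *Calr* and *Pdia4*, and *Ddit3* had -0.65 (adjusted p = 0.139). Over all 11 alternatives for both sets *Hspa5* ran from 0.16 to 0.56 and *Hsp90b1* from 0.16 to 0.37, and each was called in 1. In STF *Hspa5* was at 0.03 (adjusted p = 0.987) with the tuft covariate and at 0.165 (adjusted p = 0.869) with the Paneth covariate. The part of the sorted cells' make-up in these results was otherwise not tested.

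The diet differences were next compared between the sets. The interaction of diet and set was called for 0 of 10 members and for 0% of all genes, and the members' unadjusted p values for it ran from 0.24 to 0.931. Among all genes 451 had an unadjusted p under 0.05 for it, and DESeq2 also called none. A difference between the diets' effects at 9 and 22 weeks was therefore not detectable for any member.

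The sets themselves differed in 4 of 10 members, where 10.9% of all genes were called. Over both diets *Xbp1* was lower in LTF than in STF with a log2 difference of -0.65 (SE 0.15, adjusted p = 0.00273), *Pdia4* by -0.64 (SE 0.19, adjusted p = 0.0279) and *Hspa5* by -0.57 (SE 0.16, adjusted p = 0.0144), and *Atf4* was higher by 0.68 (SE 0.16, adjusted p = 0.00412). Sizes and calls, though not these directions, depend on the scaling. On log2(TPM + 1) the median of all genes shifted by 0.27 between the sets, *Hspa5*, *Pdia4* and *Xbp1* stood at -0.02, -0.13 and -0.18 and were not called, and *Atf4* and *Calr* were called as higher. Without the 6 Paneth-rich libraries, of which 5 are in STF, *Xbp1* (-0.47, adjusted p = 0.117), *Pdia4* (-0.36, adjusted p = 0.434) and *Hspa5* (-0.31, adjusted p = 0.375) were no longer called. *Atf4* was called in all 11 alternatives and was higher in LTF within each series of mouse numbers, by 1.06, 0.68 and 0.59 log2 units. The other 3 were uneven across the series. *Hspa5* had -0.43, -0.985 and -0.085, *Pdia4* -0.24, -1.38 and -0.34, and *Xbp1* -0.40, -0.865 and -0.68.

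The mouse numbers in the sample titles were sorted into 3 series, and no source says what the numbers mark. The first holds the numbers 1 to 8, the second the multiples of 10 and the third the other numbers from 21 to 64, with 15, 13 and 15 libraries, and mice 65 and 84 fall outside them. A series holds at most 4 mice of a set and diet. The study housed 4 mice in a cage, killed a cage of each group per day and described 3 repeated experiments. Mice of a series and diet may thus have shared a cage, a day or an experiment. Values within series are given in that order. *Calr* was uneven across them, with differences between the diets over both sets of 0.09, 0.55 and 0.805 log2 units, and *Hspa5* had 0.46, 0.13 and 0.48. In the second series of STF the difference of *Hspa5* was -0.22, and that series holds mice 10 and 20 of RFD. With the series as a batch term the same 3 members were called over both sets.

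A further question was whether the members vary together from mouse to mouse. The log2 CPM of each gene was centred on the mean of its group, and *Hspa5* was compared with each of the other 9 members over the 45 libraries, with a two-sided permutation test of 100000 permutations and Benjamini-Hochberg adjustment over the 9. Values were permuted freely over the 45 libraries, here and for the marker scores below, and not within groups. The groups differed in spread (*Hspa5* SD 524.9 CPM in STF RFD and 149.5 CPM in LTF HFD), so these permutation p values are approximate. *Hspa5* varied most closely with *Pdia4* (Pearson r = 0.789, permutation p = 1e-05, the smallest that this number of permutations can give, adjusted p = 9e-05; Spearman rho = 0.74, adjusted p = 4.5e-05). It also varied with *Xbp1* (r = 0.613, permutation p = 2e-05, adjusted p = 9e-05; rho = 0.645, adjusted p = 4.5e-05) and *Hsp90b1* (r = 0.514, permutation p = 0.0006, adjusted p = 0.0018; rho = 0.537, adjusted p = 0.0006). Without the 2 libraries farthest from the median of *Hspa5* these were 0.723, 0.543 and 0.394. Within the series *Pdia4* held in each, at 0.685, 0.84 and 0.767, whereas *Xbp1* had 0.503, 0.739 and 0.384 and *Hsp90b1* 0.565, 0.688 and 0.295.

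*Ddit3* went the other way, with r = -0.376 against *Hspa5* (permutation p = 0.013, adjusted p = 0.0292; rho = -0.442, adjusted p = 0.00556), and -0.341 (adjusted permutation p = 0.0592) without the 2 farthest libraries. Within the series it was -0.575, -0.609 and -0.05, and on log2(TPM + 1) it turned positive, at 0.182 (adjusted permutation p = 0.258). *Calr*, *Dnajb9*, *Herpud1*, *Atf4* and *Trib3* had r between -0.06 and 0.20 against *Hspa5*, with adjusted permutation p values of 0.327 or more. On log2(TPM + 1) *Calr* had 0.516 (adjusted permutation p = 0.00108) and *Herpud1* 0.394 (adjusted permutation p = 0.0144), so these 2 relations depend on the scale.

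**Figure D3:**
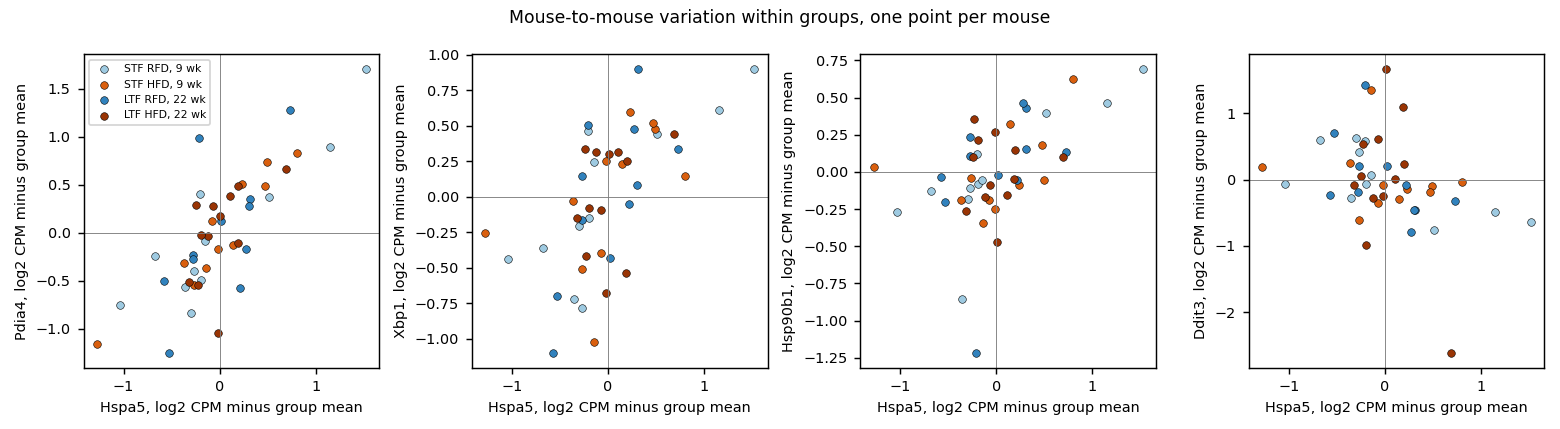
Level of *Pdia4*, *Xbp1*, *Hsp90b1* and *Ddit3* (y axes) against that of *Hspa5* (x axes), each as log2 CPM minus the mean of its group, with 1 point per mouse coloured by group. The points rise together for *Pdia4* (r = 0.789), *Xbp1* (r = 0.613) and *Hsp90b1* (r = 0.514) and scatter downwards for *Ddit3* (r = -0.376).

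The same centred values were set against the tuft and Paneth marker scores of the libraries, in 20 relations adjusted together. The tuft marker score is the mean log2 CPM of tuft markers minus that of other epithelial markers, so it is not tuft signal alone. *Pdia4* and *Hspa5* were lower in libraries with a higher score, with r = -0.593 (permutation p = 3e-05, adjusted p = 0.0005; rho = -0.505, adjusted p = 0.0044) and r = -0.578 (permutation p = 5e-05, adjusted p = 0.0005; rho = -0.406, adjusted p = 0.0392). *Xbp1* followed with r = -0.453 (adjusted permutation p = 0.0118; rho = -0.507, adjusted p = 0.0044), and *Ddit3* had r = 0.399 (adjusted permutation p = 0.0222; rho = 0.346, adjusted p = 0.0671). Without the 2 libraries farthest from the median score these were -0.583, -0.57, -0.401 and 0.255. Within the series they were -0.561, -0.55 and -0.395 for *Pdia4*, -0.642, -0.529 and -0.358 for *Hspa5*, -0.537, -0.383 and -0.06 for *Xbp1*, and 0.501, 0.389 and 0.313 for *Ddit3*. *Calr*, with r = 0.135 (adjusted permutation p = 0.667; rho = 0.0565, adjusted p = 0.864), showed no such relation over the 45 libraries. Within the series it had -0.311, 0.063 and 0.624, so the series differed in sign. Against the Paneth score, *Hspa5* had r = 0.405 and *Herpud1* r = 0.399 (adjusted permutation p = 0.0222 each; rho = 0.318 and 0.338, adjusted p = 0.085 and 0.0671). Within the series these were 0.416, 0.494 and 0.106 for *Hspa5* and 0.595, 0.436 and 0.108 for *Herpud1*. *Pdia4* (0.327), *Dnajb9* (0.297), *Xbp1* (0.293) and *Ddit3* (-0.296) had adjusted permutation p values of 0.0797 to 0.0986 against the same score, and their values in the third series were 0.01, 0.247, -0.153 and -0.06.

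**Figure D4:**
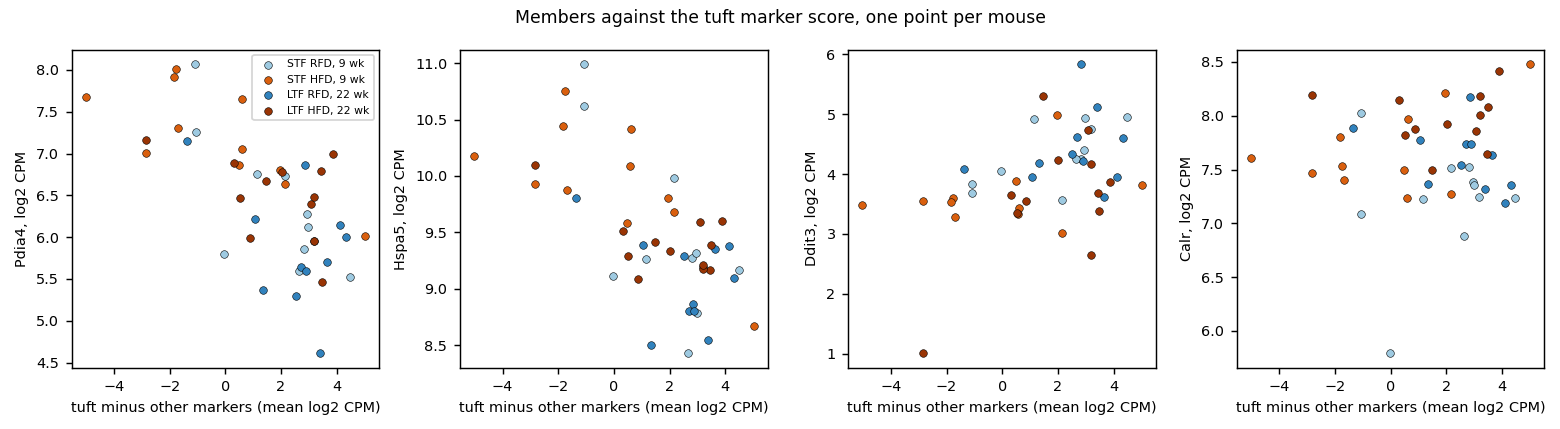
Level of *Pdia4*, *Hspa5*, *Ddit3* and *Calr* (y axes, log2 CPM) against the tuft marker score (x axes, mean log2 CPM of tuft markers minus that of other epithelial markers), with 1 point per mouse coloured by group. The levels of *Pdia4* and *Hspa5* fall from left to right, and the 6 lowest scores (-5.03 to -1.70) include 5 libraries of STF HFD.

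After taking out both scores by regression, *Hspa5* still varied with *Pdia4* (r = 0.684, adjusted permutation p = 9e-05), *Hsp90b1* (r = 0.612, adjusted permutation p = 9e-05) and *Xbp1* (r = 0.479, adjusted permutation p = 0.00252). *Calr* then had r = 0.324 (adjusted permutation p = 0.067). The value for *Ddit3* was -0.193 (adjusted permutation p = 0.306). Among 5604 genes with a mean of at least 20 CPM, the 5 most like *Hspa5* by the same r were *Hspa8* (0.861), *Arf4* (0.815), *Lman2* (0.814), *Manf* (0.813) and *Bzw1* (0.808). Of the members, *Pdia4* ranked 9, *Xbp1* 205 and *Hsp90b1* 526. *Herpud1* ranked 2162, *Calr* 2259, *Dnajb9* 2567 and *Atf4* 2952. Many genes other than the members thus varied with *Hspa5* more closely than *Xbp1* and *Hsp90b1* did. *Hspa8* is the constitutive cytosolic Hsp70, *Arf4* and *Lman2* act in transport between ER and Golgi, and *Manf* encodes a secreted ER stress protein. The 5 most like *Ddit3* were *Gtpbp2* (0.671), *Tmem106a* (0.612), *Tmem127* (0.599), *Akr1b10* (0.593) and *Uba7* (0.593). These r values describe the 45 libraries, which share depth and cell make-up, and carry no test.

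Beyond the 10 members, 112 further genes of the pathway in 6 lists were examined, and 107 of them passed the filter. Over both sets 24 of the 107 (22.4%) were called, 22 higher and 2 lower on HFD, where 11.7% of all genes tested were called. The lists were chosen with earlier results of these data known, so this excess is not independent evidence. With the tuft marker score as a covariate 5 of 107 were called (*P4hb*, *Pdia3*, *Canx*, *Ssr3* and *Nars*), where 3.95% of all genes were, so the other 19 calls were lost. With the Paneth marker level it was 10 of 107, where 5.75% of all genes were called. All 24 are given here by list.

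The folding list had 6 of 24 genes higher and 0 lower over both sets, where 6.03% of all genes rose and 5.68% fell. Its median log2 fold change was 0.33. Its median was 0.385 in STF and 0.16 in LTF. *P4hb*, a protein disulfide isomerase, was the one gene of the lists called in STF, in LTF and over both sets. Levels in STF were 855.8 ± 289.9 CPM for RFD and 1431 ± 519 CPM for HFD (SD, n = 11 each), and 1061 ± 311 CPM (n = 11) and 1936 ± 543 CPM (n = 12) in LTF, by edgeR adjusted p = 0.0951 and 0.026. Its log2 fold change over both sets was 0.805 (SE 0.14, adjusted p = 0.000257), and it stayed called in all 11 alternatives. The disulfide isomerase *Pdia3* rose by 0.69 (SE 0.17, edgeR adjusted p = 0.0104) and *Canx* (calnexin, the membrane-bound relative of calreticulin) by 0.66 (SE 0.17, edgeR adjusted p = 0.0142). *Selenof*, a selenoprotein of the ER, rose by 0.47 (SE 0.14, edgeR adjusted p = 0.0285), and *Pdia6* (0.76) and *Ppib* (0.36) were also called.

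The translocation list holds genes for entry into the ER and signal peptide removal. Over both sets 6 of 18 were higher and 0 lower, where 6.03% of all genes rose and 5.68% fell, and the median log2 fold change was 0.28. The median of this list was 0.385 in STF and 0.16 in LTF. *Ssr3*, a subunit of the translocon-associated protein complex, ranged from 37.7 to 164.8 CPM for RFD (median 88.7) and from 60.1 to 279.1 CPM for HFD (median 162.4) in STF. It was called there (1.11, SE 0.30, edgeR adjusted p = 0.0662) and over both sets (0.78, SE 0.18, edgeR adjusted p = 0.00668). In LTF alone *Ssr3* was at 0.50 (SE 0.20, edgeR adjusted p = 0.359) and was not called. *Sec61b* (a subunit of the translocon) rose by 0.355, *Spcs1*, *Spcs2* and *Spcs3* (subunits of signal peptidase) by 0.34, 0.40 and 0.54, and *Srp54a* by 0.79. Over the 11 alternatives *Ssr3* was called in all, *Srp54a* in 8, *Spcs1* in 6 and *Sec61b* in 5. The reads of *Srp54a* are uncertain because it has near-identical copies. *Spcs1* lost its call in 5 of the 45 fits without 1 library (mice 1, 21 or 24 of STF RFD, or 6 or 62 of STF HFD), with adjusted p values of up to 0.114 (without mouse 6 of STF HFD), against 0.0721 with all libraries (edgeR).

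Targets of ATF4 were higher over both sets in 7 of 25 tested genes and lower in 0, where 6.03% of all genes rose and 5.68% fell. Their median log2 fold change was 0.69. The median was 0.75 in STF and 0.26 in LTF. The members *Ddit3* and *Trib3*, also ATF4 targets, had log2 fold changes below 0. *Asns* (asparagine synthetase) averaged 28.9 ± 29.9 CPM in STF RFD and 76.6 ± 44.5 CPM in STF HFD (SD, n = 11 each). It was called there (1.41, SE 0.42, edgeR adjusted p = 0.0847) and over both sets (1.05, SE 0.32, edgeR adjusted p = 0.0343). In LTF alone *Asns* was at 0.73 (SE 0.45, edgeR adjusted p = 0.605) and was not called. With the tuft covariate *Asns* stood at 0.64 (edgeR adjusted p = 0.132) and *Wars* at 0.46 (edgeR adjusted p = 0.283). The tRNA synthetase genes *Nars*, *Wars* and *Mars* rose by 0.77, 0.80 and 0.74 over both sets (edgeR adjusted p from 0.0111 to 0.0555), *Shmt2* (serine and glycine metabolism in mitochondria) by 0.83 and *Atf3* by 1.29. *Atf3* is also in the list of genes that respond to tissue dissociation, of which *Fos* (0.95) and *Jun* (0.76) rose and *Hspa1b* (-1.58) fell over both sets.

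*Pck2*, the mitochondrial form of PEP carboxykinase, averaged 9.16 ± 5.08 CPM in STF RFD and 36.2 ± 19.9 CPM in STF HFD (SD, n = 11 each), against 14.04 ± 9.94 CPM (n = 11) and 15.1 ± 9.45 CPM (n = 12) in LTF. The rise in STF was called (2.04, SE 0.44, edgeR adjusted p = 0.0321), and the value in LTF was 0.08 (SE 0.44, edgeR adjusted p = 0.972). The test of the difference between sets gave -1.91 (SE 0.63, unadjusted p = 0.00347 and adjusted p = 1.0 by edgeR), so it did not pass the adjustment. Over both sets *Pck2* was at 0.99 (edgeR adjusted p = 0.0709), and this call was lost in 7 of the 45 fits without 1 library: without mice 1, 22 or 23 of STF RFD, 8 or 70 of STF HFD, or 6 or 32 of LTF HFD (adjusted p from 0.101 to 0.109).

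Among 11 sensors and transducers, *Eif2s1*, which encodes the eIF2α subunit that PERK phosphorylates, rose by 0.64 (SE 0.18, edgeR adjusted p = 0.0233) and *Ern2* by 1.45 (SE 0.48, edgeR adjusted p = 0.0547). *Ern2* encodes IRE1β, a form of the sensor known from mucus-secreting epithelium, and averaged 10.98 ± 9.02 CPM in STF RFD and 33.96 ± 28.6 CPM in STF HFD (SD, n = 11 each). With the tuft score as a covariate it was at 0.76 (edgeR adjusted p = 0.408), and with the Paneth marker level at 1.00 (edgeR adjusted p = 0.232). Without the Paneth-rich libraries it was at 1.03 (edgeR adjusted p = 0.258). Within the series *Ern2* was at 0.81, 0.34 and 1.89 over both sets, and at -0.995 in the second series of LTF. The 8 goblet cell markers had a median log2 fold change of 0.62 over both sets, with 1 of 8 called, where 11.7% of all genes were. For the 9 Paneth markers it was 1.81, with 0 called. Which cells the *Ern2* reads came from was not tested. ER-associated degradation had 1 of 20 genes higher and 2 lower, where 6.03% of all genes rose and 5.68% fell, and its median was -0.07. *Vcp*, the ATPase that extracts proteins from the ER membrane, rose by 0.45 (edgeR adjusted p = 0.0442), its cofactor *Nploc4* fell by 0.99 (edgeR adjusted p = 0.0355), and *Erlec1*, an ER lectin, fell by 0.61 (edgeR adjusted p = 0.0416). With the tuft covariate none of the 3 was called (adjusted p from 0.212 to 0.238), and over the 11 alternatives *Vcp* and *Nploc4* were called in 7 and *Erlec1* in 6. None of 10 genes of cell death and redox was called, with 2 at an unadjusted p under 0.05. *Ero1l*, an ER oxidase that CHOP induces, had the smallest p of them (0.55, SE 0.22, edgeR adjusted p = 0.113). It was called by DESeq2 (adjusted p = 0.0362), without the libraries under 500000 reads (adjusted p = 0.0617) and in 11 of the 45 fits without 1 library.

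**Figure D5:**
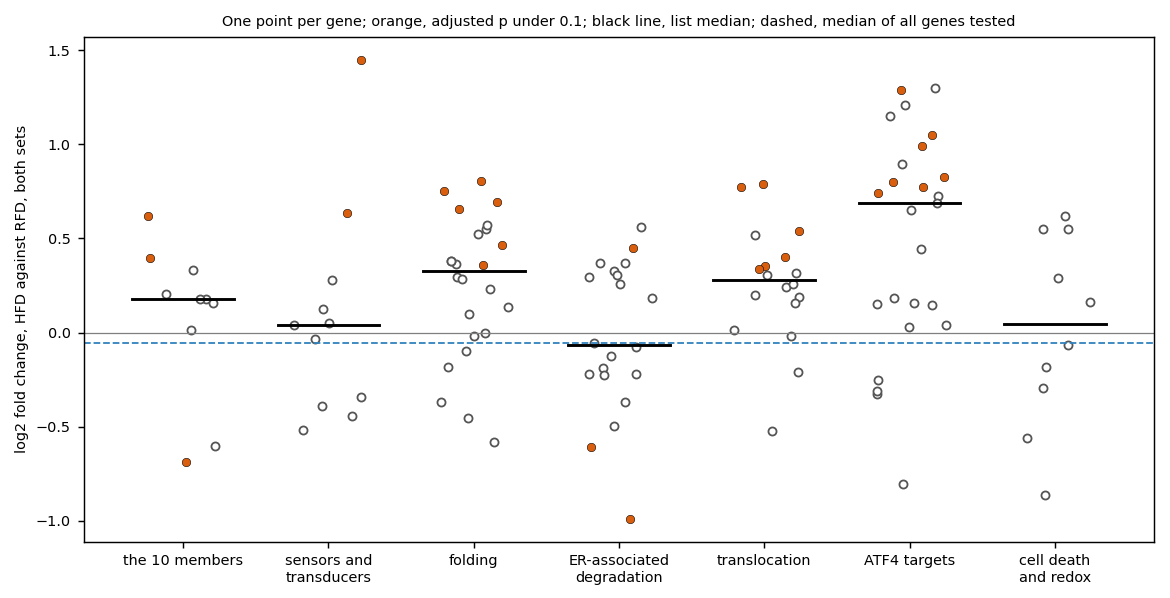
Log2 fold change on HFD against RFD over both sets (y axis) for the 10 members and for each tested gene of the 6 wider lists (x axis), with 1 point per gene, orange where the adjusted p was under 0.1, a black line at each list's median and a dashed line at the median of all genes tested (-0.06). The medians of the folding (0.33), translocation (0.28) and ATF4 target (0.69) lists lie above the dashed line, and those of degradation (-0.07) and cell death (0.05) lie close to it.

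Cytosolic and mitochondrial heat shock genes were set beside these as a group outside the ER. Of 10, 2 were called over both sets, where 11.7% of all genes were, and the median log2 fold change was 0.18. Both called genes encode the mitochondrial chaperonin, *Hspd1* (0.89, SE 0.27, edgeR adjusted p = 0.0382) and *Hspe1* (0.88, SE 0.24, edgeR adjusted p = 0.0192).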

How the data were processed

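Tuft cells (EpCAM+ Siglec-F+) were sorted, and their RNA was amplified by Smart-seq2 and sequenced paired-end with 1 library per mouse. The study's methods list the sorted cells as CD45+ but also state that CD45 served to exclude cells, so the CD45 gate is unclear. Per the labels, the authors trimmed reads with cutadapt 1.15, aligned them with STAR 2.6.0 to GRCm38 and deposited RSEM expected counts and TPM per gene. RSEM splits reads between similar genes, and 8.79% of counts above 0 were not whole. Here counts were rounded and 19 genes that shared a symbol were dropped (GENCODE M21). Another 24 columns, of samples not listed here, were not used.

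Counts were TMM-normalized and tested with edgeR 4.0.16 (quasi-likelihood, robust), per set, over both sets with set as a term, and for the interaction, with Benjamini-Hochberg adjusted p under 0.1. SE is the log2 fold change divided by the root of F, and 95% intervals use the residual degrees of freedom. Log2 CPM had a prior count of 2. The fits per set were tested on simulated data. The changed genes were drawn from those with a mean over 20 CPM, so the rates do not cover *Ddit3* (mean 17.2 CPM) and *Trib3* (3.09 CPM). Of 100 genes changed by 1 log2 unit, 40 were recovered in STF and 51 in LTF. Of 100 changed by 2 log2 units, 92 and 94 were recovered. False calls numbered 29 in STF and 16 in LTF, beside these recovered genes. In STF that is a larger share of the calls than the threshold of 0.1 allows for. A fit of a single set can thus miss a difference of 1 log2 unit, and some of its calls can be false. Alternatives used DESeq2 1.42.0 and limma 3.58.1. The members and lists were chosen with earlier results of these data known. From each wider list, genes with a call were named, at most 4 by smallest p with full values, or the gene with the smallest p, and the remaining called genes were named after their values were seen. Intervals and SE cover the spread between mice. They and the p values treat each mouse as independent, although mice were housed 4 in a cage and a cage belonged to a diet group. The cage of each mouse is not given, so a likeness between cage mates was not modelled. Depth set how finely low genes such as *Trib3* could be read.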

Additional observations from a re-analysis of the deposited data

How the results depend on the processing

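No paired analysis was possible because the diets compared share no mouse numbers, and numbers shared between the sets belong to different mice. Leaving out libraries in turn over both sets, the fit that was not robust, both Paneth alternatives and the residuals after marker scores were chosen after seeing the data. In STF, where no member was called, DESeq2 called 2 (10.9% of all genes), no filter 1 (4.16%), and omitting the Paneth-rich libraries 1 (3.12%). Over both sets, against 3, no filter called 1, the tuft covariate 1, the Paneth covariate 1 and log2(TPM + 0.1) 0. These fits called 4.3%, 3.95%, 5.75% and 4.09% of all genes, DESeq2 called 20% and log2(TPM + 1) 6.71%. Of the 107 wider genes, against 24, DESeq2 called 39, no filter 15, the tuft covariate 5, the Paneth covariate 10, log2(TPM + 1) 14 and log2(TPM + 0.1) 6. Between LTF and STF, against 4 members, the tuft and Paneth covariates called 2 (9.91% and 8.08% of all genes), both TPM scales 2 (22% and 20.2%), and omission of the Paneth-rich libraries 1 (4.21%). In LTF, and for the interaction, no alternative called a member, though over all genes the interaction was called for 65 without a filter and for 1 by the fit that was not robust. Without each of the 45 libraries, 3 to 4 members and 19 to 35 wider genes were called over both sets, and *Calr*, *Pdia4* and *Ddit3* were called in all 45, at adjusted p of up to 0.0622, 0.0723 and 0.097.

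Signs changed as follows, in values that were not called except the last correlation named. In STF *Herpud1* was -0.0206 with DESeq2 size factors, -0.0224 with DESeq2, -0.0199 without libraries of few reads, -0.0267 with the number series, -0.207 with the tuft covariate, -0.253 with the Paneth covariate, -0.209 without Paneth-rich libraries, -0.234 and -0.238 on the TPM scales and -0.0162 with 4 groups in 1 fit. Over both sets it was -0.0306, -0.0893, -0.0582, -0.0789 and -0.0807 with the tuft covariate, the Paneth covariate, no Paneth-rich libraries and the TPM scales, and -0.0298 to 0.0946 without single libraries. In LTF it was -0.0125 with the Paneth covariate and -0.0354 without Paneth-rich libraries, where *Atf4* was -0.0175. In STF *Hsp90b1* was -0.00299 and -0.00403 on the TPM scales, *Dnajb9* -0.148, -0.0948 and -0.111 with the tuft covariate, the Paneth covariate and no Paneth-rich libraries, and *Xbp1* -0.0699 and -0.00572 with the covariates. Between the sets, the TPM scales gave *Hsp90b1* 0.304 and 0.306 and *Herpud1* 0.336 and 0.341, and the tuft and Paneth covariates gave *Ddit3* -0.016 and -0.00438. Pearson r with *Hspa5* was -0.299 for *Calr* in the third series, -0.0521 for *Herpud1* in the first, and for *Atf4* -0.162 without the 2 farthest libraries, -0.315 in the first series and -0.334 in the third. *Trib3* had 0.0254 on log2(TPM + 1), 0.0435 without the 2 farthest and 0.0348 in the first series, while *Ddit3*, with a call at -0.376, had 0.182 on log2(TPM + 1). Within single series the sign of the diet difference also turned for *Hspa5* (-0.224), *Hsp90b1* (-0.139), *Atf4* (-0.108) and *Trib3* (1.64) in the second series of STF and *Dnajb9* (-0.339) and *Herpud1* (-0.624) in its first. In LTF it turned for *Xbp1* (-0.0699) and *Atf4* (-0.00252) in the first, *Herpud1* (-0.323) in the second and *Dnajb9* (-0.255) in the third. Over both sets it turned for *Herpud1* (-0.132 and -0.052, first and second) and *Trib3* (0.715, second). The causes were not tested. Low counts limit how finely *Ddit3* and *Trib3* can be read.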
